A study of Schizosaccharomyces pombe with 40 samples.

Results

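The strain Cdelta53 of fission yeast (Schizosaccharomyces pombe), which carries a truncated rep2 gene, was compared with wild-type cells before any hydroxyurea was added. The comparison used the 2 arrays of Cdelta53 at 0 min, of 40 arrays in the study. Each array set total RNA of a mutant, dyed with Cy5, beside RNA pooled from wild-type cells at mid log phase, dyed with Cy3. For each gene the log2 ratio of strain over reference, averaged over its probes and the 2 arrays, was set against 0, and then against the same ratio in the other 3 rep2 mutants at 0 min.

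The other mutants were the truncations Cdelta21 and Cdelta94 and the site mutant 2C/S-H/Y, with 2 arrays each at 0 min. All strains grew in YES, a rich medium, at 30 °C, and were later sampled at 10, 30, 60 and 120 min in 8 mM hydroxyurea, an inhibitor of ribonucleotide reductase. No array measured wild-type cells against the pool and no dyes were swapped, so the pool stands as a single control sample and its own spread is left out. A shift that all 4 strains share cannot be told apart from one of the reference or the dyes. The labels do not say what the numbers in the strain names count, which residues are lost or whether any other allele was present, and a second label field names another mutant, so the strain was taken from the sample titles.

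Rep2 is an activating partner of MBF, the transcription factor of Cdc10, Res1 and Res2 that drives genes for DNA replication as cells pass from G1 into S phase. Nrm1 is its co-repressor, and the checkpoint kinases Rad3 and Cds1 keep MBF genes on when replication stalls. In cells that are not synchronised, the level of an MBF transcript reflects both its expression per cell and the share of cells in the phase that expresses it, and these RNA measurements cannot tell them apart.

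The 2 Cdelta53 arrays were nearly the same. Across features the difference between them had a standard deviation (SD) of 0.0829 on the log2 scale, against 0.143 to 0.324 for the replicate pairs of the other strains, and all 5 Cdelta53 pairs of the study lay between 0.058 and 0.0829. The pair was therefore counted as 1 sample whose error was taken from the other groups, since nothing in the labels says that a group's arrays came from separate cultures. A gene is called higher or lower here only if limma's adjusted p was under 0.05 both with the arrays kept separate and with such pairs counted once. Printed p values are the larger of the 2, standard errors (SE) come from the second fit, and the small number of arrays limits their precision. The sources do not say which channel the deposited ratio divides by which. It was read as strain over reference, the likely reading, because the strain is the first channel and the rep2 probes read low in all 3 truncations.

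The rep2 gene itself was read by 2 probes, and they gave different values in Cdelta53. Probe 1 had log2 ratios of −1.27 and −1.36 on the 2 Cdelta53 arrays, and probe 2 had −4.44 and −4.80. In Cdelta21 the probes gave −0.66 and −0.67, and −1.01 and −1.21. In Cdelta94 both probes were low, at −5.38 and −5.64 for probe 1 and −5.51 on both arrays for probe 2. In 2C/S-H/Y they read 0.78 and 0.56, and 0.33 and −0.18, near or above the reference. Cdelta53 thus lay with Cdelta94 at probe 2 and nearer to Cdelta21 at probe 1, and its arrays in hydroxyurea kept to −1.81 to −1.16 and −5.16 to −4.18. The probe sequences were not used here, so whether a truncation removes the sequence a probe reads is not known, and these are probe signals and not levels of a transcript.

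**Figure D1:**
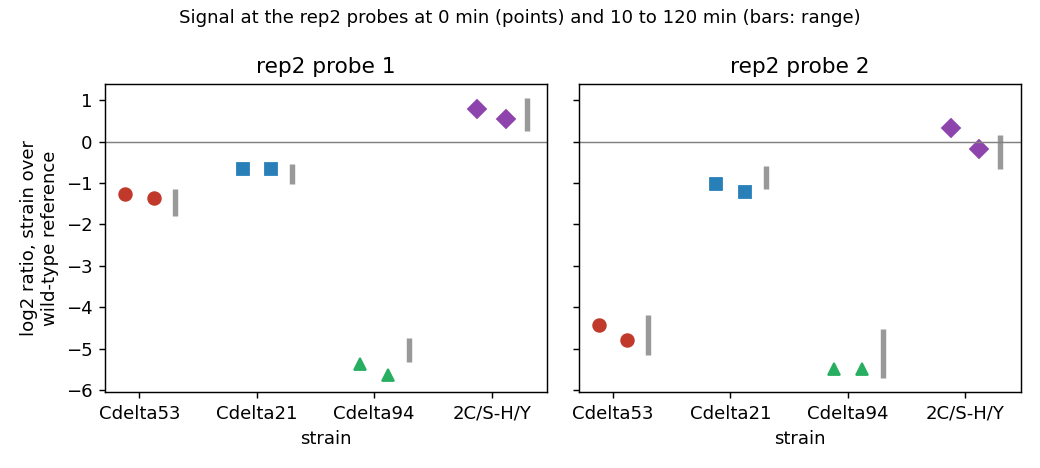
Log2 ratio of strain over wild-type reference (y axis) at each of the 2 rep2 probes, by strain. Points are the 2 arrays at 0 min and grey bars the range of the arrays at 10 to 120 min. Cdelta53 reads −1.27 and −1.36 at probe 1 and −4.44 and −4.80 at probe 2.

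Averaged over both probes, rep2 had log2 ratios of −2.86 and −3.08 in Cdelta53 and a mean of −2.97 (SE 0.16), or 7.82-fold below the reference. Since low rep2 readings helped to set the direction of the ratio, the sign of this value is a description and not a test result. Taken in that direction, it was lower than in Cdelta21 and 2C/S-H/Y, with differences of −2.08 and −3.34 on the log2 scale, and higher than in Cdelta94, with a difference of 2.54. Of the 6 nearest genes on the chromosome, klp5, cay1, mrpl35, atf21 and ceg1 were tested. None of these 5 was called in the Cdelta53 arrays, at means of −0.10 to 0.35, while limma's unadjusted p was under 0.05 for 1 of them and 2 were called with the arrays kept separate.

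Against the reference, 1414 of 5004 features were called in Cdelta53, which is 28.3% of those tested. Of these, 693 were higher (13.8%) and 721 lower (14.4%), and 105 of them differed at least 2-fold, 53 higher and 52 lower. Against the equal-weight mean of the other 3 strains 876 features were called (17.5%), 408 higher (8.15%) and 468 lower (9.35%). The single comparisons called 24.3% of features against Cdelta21, 24.2% against Cdelta94 and 33.1% against 2C/S-H/Y. These shares are the background against which the counts below should be read, and the median over all features was 0.01 against the reference and 0.02 against the other strains.

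A total of 148 features, 2.96% of those tested, were called against the reference and against each of the other 3 strains in the same direction, and these are called particular to Cdelta53. Of these, 56 were higher and 92 lower, and 137 are named genes. The difference was at least 2-fold from every other strain for 11 of the higher and 17 of the lower features. Among the higher ones, 16 had means below 0 in all 3 other strains, and among the lower ones 42 had means above 0 in all of them. Each probe alone gave the same direction, against the reference and all 3 strains, in 121 of the 131 named genes where both were measured. These genes were chosen on the mean of the same probes on the same arrays, so that agreement was largely built in. With the first probe alone 77 features were particular, and with the second alone 77. Their median gene length was 1567 bases for the higher genes and 1696.5 for the lower, against 1814 for all named genes, and no pair of neighbouring genes on a chromosome was particular, of 4461 such pairs tested. The count fell to 89 and 97 when replicate 1 or 2 of Cdelta94 at 0 min was left out.

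**Figure D2:**
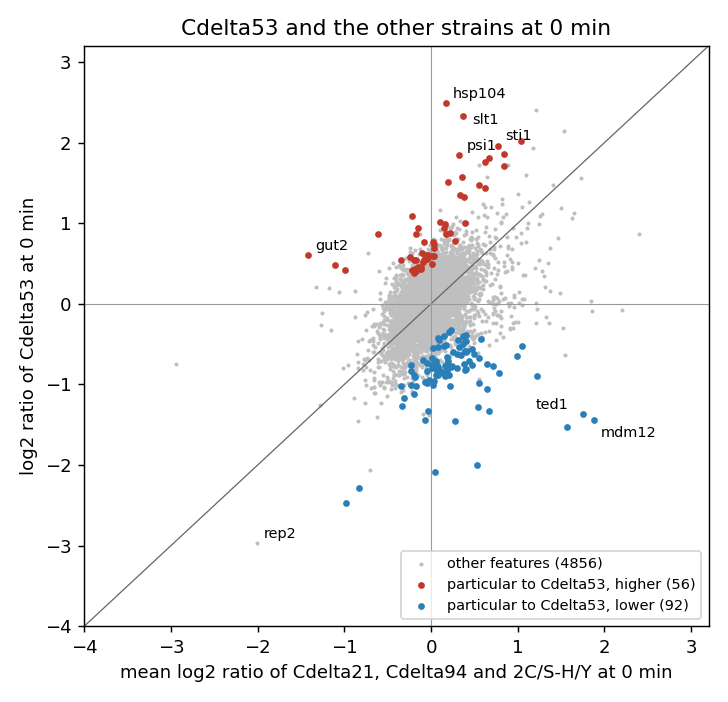
Each point is a feature, with its log2 ratio in Cdelta53 at 0 min (y axis) against the mean of the other 3 strains at 0 min (x axis); the diagonal marks equal values. Red and blue points are the 56 higher and 92 lower features particular to Cdelta53, with hsp104, slt1 and psi1 at the top and ted1 and mdm12 at the lower right.

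Of 17 tested MBF targets, 4 were lower and 1 higher than the reference in Cdelta53, or 29.4% called against 28.3% of all features. By direction, 14.4% of all features were called lower and 13.8% higher. With the arrays kept separate 8 targets were lower and 4 higher, where 1415 of all 5004 features were lower and 1449 higher. The list median was −0.11, beside 0.07 in 2C/S-H/Y, −0.12 in Cdelta21 and −0.43 in Cdelta94. The lower targets were mik1, cig2, cdc18 and nrm1, and the higher target was ctp1. No target was particular to Cdelta53.

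The kinase gene mik1, whose product holds the mitotic kinase Cdc2 inactive, read −1.11 and −1.12 on the Cdelta53 arrays, 2.16-fold lower than the reference (SE 0.17, adjusted p = 4.15e-05). Its mean was 0.07 in 2C/S-H/Y, −0.53 in Cdelta21 and −1.51 in Cdelta94. Cdelta53 was lower than Cdelta21 (−0.58, adjusted p = 0.042) and 2C/S-H/Y (−1.18, adjusted p = 0.000175), while the difference of 0.40 from Cdelta94 was not called (adjusted p = 0.161). The S phase cyclin gene cig2 read −0.76 and −0.75, 1.69-fold lower (SE 0.16, adjusted p = 0.00155). Its mean in Cdelta94 was −2.37, so Cdelta53 was higher than that strain by 1.62 on the log2 scale (adjusted p = 3.62e-06), lower than 2C/S-H/Y (−0.92, adjusted p = 0.00139), and −0.10 from Cdelta21 with no call (adjusted p = 0.752). The origin licensing gene cdc18 read −0.57 and −0.64 (adjusted p = 0.0428), but was not called when replicate 2 of Cdelta53 or either 0 min array of Cdelta94 was left out. The co-repressor gene nrm1 read −0.37 and −0.31 (adjusted p = 0.0356), but was not called when replicate 1 of Cdelta53 was left out. The gene ctp1, for the resection of DNA breaks, read 0.72 and 0.74, and was 1.66-fold higher (adjusted p = 0.000338), beside means of 0.35, 1.13 and 0.38 in Cdelta21, Cdelta94 and 2C/S-H/Y.

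Other S phase targets were not called against the reference but differed from single strains. The gene cdc22, for the large subunit of ribonucleotide reductase, read −0.31 and −0.32, beside means of 0.67 in 2C/S-H/Y, 0.60 in Cdelta21 and −1.38 in Cdelta94. It was lower than Cdelta21 (−0.91, adjusted p = 0.00468) and 2C/S-H/Y (−0.98, adjusted p = 0.00198) and higher than Cdelta94 (1.07, adjusted p = 0.00154). The dUTPase gene dut1, at −0.27 and −0.28, stood in the same order, lower than Cdelta21 (−0.70) and 2C/S-H/Y (−1.13) and higher than Cdelta94 (1.17). The licensing gene cdt1 read −0.35 and −0.26, lower than Cdelta21 (−0.92) and 2C/S-H/Y (−0.62), and 0.12 from Cdelta94 (adjusted p = 0.687). Over the 17 targets, Cdelta53 was lower than 2C/S-H/Y for 8 and higher for 1. It was lower than Cdelta21 for 4 and higher for 2, and lower than Cdelta94 for 1 and higher for 4. Of all 5004 features, 876 were lower and 779 higher than in 2C/S-H/Y, or 33.1% called. Against Cdelta21 611 were lower and 607 higher (24.3%), and against Cdelta94 583 were lower and 628 higher (24.2%). Against the mean of the 3 strains limma called none of the 17, while 4 had an unadjusted p under 0.05 (2 in each direction) and 6 were called with the arrays kept separate. Since Cdelta94 and 2C/S-H/Y lay on opposite sides of Cdelta53 for several targets, that mean averages over opposite differences.

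**Figure D3:**
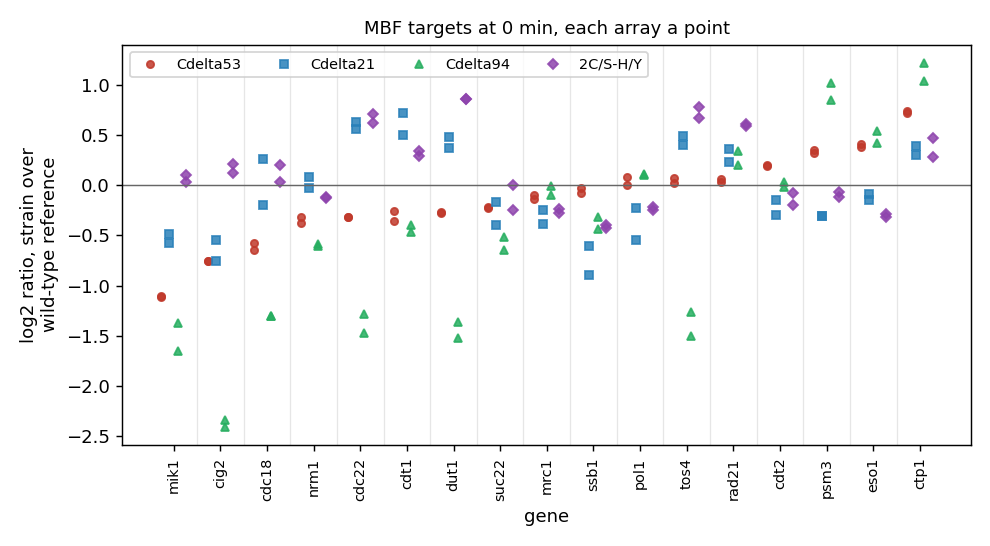
Log2 ratio of strain over reference at 0 min (y axis) for the 17 MBF targets tested (x axis, ordered by the mean in Cdelta53). Each point is an array and each strain has its own colour and marker. The Cdelta53 points run from −1.12 for mik1 to 0.74 for ctp1, and the Cdelta94 points lie far below them for cig2, cdc22, dut1 and tos4.

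On the list of MBF subunits and regulators, 3 of 9 were lower and none higher, or 33.3% against 14.4% of all features called lower. These were rep2, whose sign helped to set the direction of the ratio, nrm1, also counted among the targets, and cdc25. The last codes for the phosphatase that opposes the inhibition of Cdc2. It is no subunit of MBF and is also on the mitosis and septation list. The gene cdc25 read −0.54 and −0.50 (adjusted p = 0.00133) and was lower than the mean of the other strains (−0.42, adjusted p = 0.017). The subunit genes cdc10, res1 and res2 read 0.20, −0.13 and 0.08 on average, the related activator gene rep1 −0.29, and the checkpoint kinase genes rad3 and cds1 −0.16 and 0.20, with no call.

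Other lists of cell cycle genes differed in their share of calls. None of the 9 core histone genes was called, at means of −0.37 to 0.36, though limma's unadjusted p was under 0.05 for 1 above and 1 below the reference, and as many were called with the arrays kept separate. Their median was −0.03 in Cdelta53, beside 0.61 in 2C/S-H/Y, 0.17 in Cdelta21 and −1.06 in Cdelta94. Of the 9, 8 were higher than in Cdelta94 and 5 lower than in 2C/S-H/Y, where 628 and 876 of all 5004 features were. Of 37 genes of replication origins and forks, 2 were higher and 3 lower, or 13.5% called against 28.3% of all features. The flap endonuclease gene rad2 read 0.97 and 1.05, 2.01-fold higher (adjusted p = 2.33e-06), and was particular to Cdelta53, beside 0.16, 0.47 and −0.31 in Cdelta21, Cdelta94 and 2C/S-H/Y. The lower ones were cdc1, a DNA polymerase delta subunit, at −0.77, the helicase subunit mcm4 at −0.54 and the GINS subunit psf1 at −0.54. Of 8 genes for nucleotide supply, only the thymidylate synthase gene tmp1 was called, or 12.5% against 28.3% of all features. It was higher, at 0.61 and 0.73 (adjusted p = 0.000911). Of 25 genes of mitosis and septation 5 were lower, among them the mitotic cyclin gene cdc13 at −0.68, the transcription factor gene sep1 at −0.56 and chs2 at −0.62, and of these 5 only chs2 was particular to Cdelta53.

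Many genes for protein folding were higher than the reference. Of 25 heat shock and chaperone genes tested, 17 were higher and none lower, a share of 68.0% against 13.8% of all features called higher. All 25 means lay above 0, with a median of 0.60, beside 0.38 in 2C/S-H/Y, 0.40 in Cdelta21 and 0.11 in Cdelta94. Against the mean of the other strains 12 were higher and none lower (8.15% of all features were higher), with a median difference of 0.40, and 6 of the 25 were particular to Cdelta53.

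The disaggregase gene hsp104, whose product pulls proteins out of aggregates, read 2.50 and 2.48 on the Cdelta53 arrays, a 5.63-fold higher signal than the reference (SE 0.18, adjusted p = 5.37e-10). Its means were 0.40, 0.54 and −0.44 in Cdelta21, Cdelta94 and 2C/S-H/Y. Its difference from the mean of the 3 strains was 2.33 (SE 0.19, adjusted p = 1.28e-08). The small heat shock protein gene hsp16 was as high in Cdelta53, at 2.40 and 2.42 (5.32-fold), but its mean in Cdelta94 was 3.05, so it was not particular. Its mean was −0.31 in Cdelta21 and 0.89 in 2C/S-H/Y.

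The cofactors of Hsp90 and Hsp70 were high too. The Hsp90 and Hsp70 organising protein gene sti1 read 1.95 and 1.97 (3.90-fold, adjusted p = 3.47e-08), and the other 3 strains lay together at 0.75, 0.73 and 0.83. The DnaJ type gene psi1, for a protein that hands clients to Hsp70, read 1.83 and 1.86 (3.6-fold), and the other means were 0.36, 0.13 and 0.49. The gene wos2, for the p23 cochaperone of Hsp90, read 1.52 and 1.50, with 0.12, 0.11 and 0.38 in the other strains. The cyclophilin gene wis2, which was not on the chaperone list, read 1.81 and 1.82 beside 0.50, 0.77 and 0.74. Each of these 4 genes was particular to Cdelta53. The Hsp90 ATPase activator gene aha1 (1.33) and the Hsp70 gene ssa1 (1.71) were the other 2 particular genes of the list. In Cdelta21, Cdelta94 and 2C/S-H/Y, aha1 had 0.52, −0.09 and 0.72, and ssa1 had 1.14, 0.18 and 1.19. So ssa1 was also high in Cdelta21 and 2C/S-H/Y, with a smallest difference of 0.52.

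Chaperone genes that were called but not particular included hsp78 for the mitochondrial disaggregase, at a mean of 1.58 beside 1.36 in Cdelta94. The Hsp90 gene itself, hsp90, had a mean of 1.03 beside 0.63 in 2C/S-H/Y, 0.73 in Cdelta21 and −0.33 in Cdelta94. The second Hsp70 gene ssa2 had a mean of 1.14, and pss1, an Hsp110 gene, 0.65. The 8 members with no call were sks2, ssc1, hsp10, hsf1, cct3, cct5, cct7 and cct8, at means of 0.16 to 0.47, and they hold the gene of the heat shock factor Hsf1 itself (0.34, adjusted p = 0.15) and 4 of the subunits of the cytosolic chaperonin. Other genes of folding were found among the particular genes outside the list. The nucleotide exchange factor gene of Hsp70, fes1, read 1.82 and 1.91 (3.64-fold) beside 0.91, 0.80 and 0.82 elsewhere. The prefoldin subunit gene pfd2 read 1.06 and 1.12, while the other means were −0.43, −0.07 and −0.14.

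**Figure D4:**
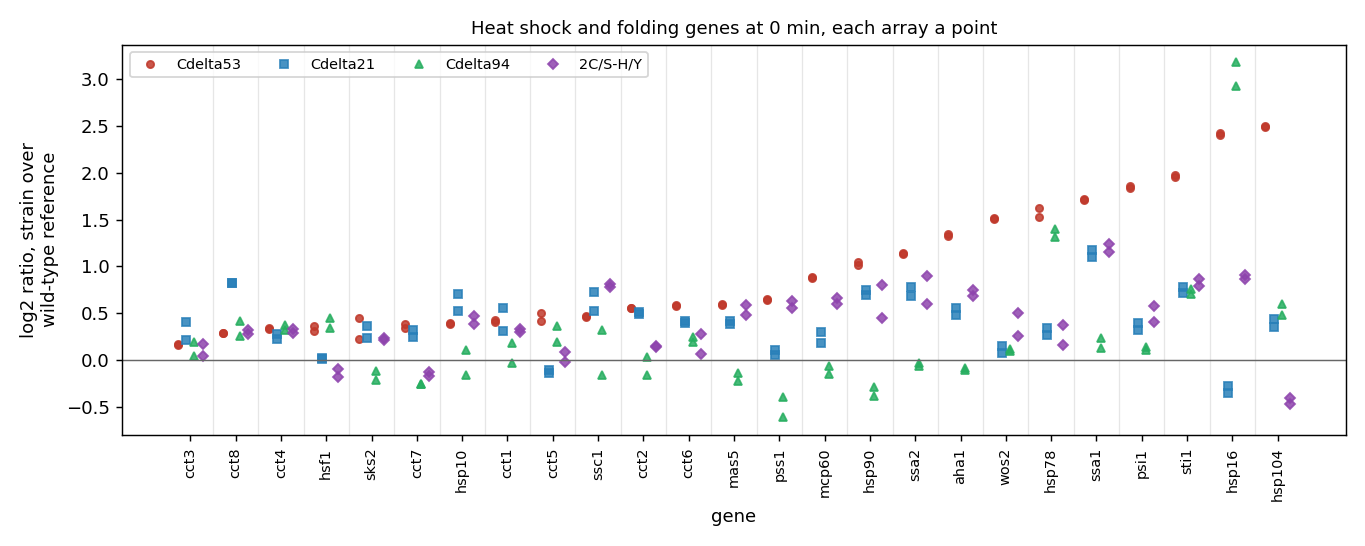
Log2 ratio of strain over reference at 0 min (y axis) for the 25 heat shock and chaperone genes (x axis, ordered by the mean in Cdelta53). Each point is an array and each strain has its own colour and marker. The genes particular to Cdelta53 are hsp104, sti1, psi1, ssa1, wos2 and aha1, and for hsp16 Cdelta53 lies below Cdelta94.

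Of 26 core stress genes, those that answer many stresses, 17 were higher and 1 lower, with a median of 0.77 beside 0.20, 0.57 and 0.37 in Cdelta21, Cdelta94 and 2C/S-H/Y; 2 of the 17, hsp104 and hsp16, are chaperone genes described above. For comparison, 13.8% of all features were called higher and 14.4% lower than the reference. Against the mean of the other strains 11 of the 26 were higher and 2 lower, where 8.15% of all features were higher and 9.35% lower. The excess was not the same against each strain. Against Cdelta21 12 were higher and 2 lower, against Cdelta94 9 were higher and 6 lower, and against 2C/S-H/Y 11 and 2. Of all 5004 features, 607 were higher and 611 lower against Cdelta21 and 628 and 583 against Cdelta94. Against 2C/S-H/Y these counts were 779 and 876. Of the 26 genes, 4 were particular to Cdelta53. The trehalose phosphate synthase gene tps1 read 1.74 and 1.79 (3.40-fold, adjusted p = 4.22e-10), beside 0.48, 0.60 and 0.77 elsewhere, and the trehalose synthase subunit gene tps3, which was not on the list, read 2.01 and 2.03 (4.05-fold) beside 1.24, 0.94 and 0.92. The trehalase gene ntp1, which breaks the same sugar down, had a mean of 1.08, and the gene gpd1, for the enzyme that starts glycerol synthesis, 0.99. The catalase gene ctt1 read 0.87 and 0.88, but its first probe alone gave 0.36 and its second 1.39.

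Some stress genes were high in the other strains too. The pyridoxal reductase gene plr1 had means of 1.47 in Cdelta53 and 1.23, 1.71 and 1.29 in Cdelta21, Cdelta94 and 2C/S-H/Y, a difference of 0.07 from their mean (adjusted p = 0.819). The sulfiredoxin gene srx1 had 1.00 beside 0.60, 0.97 and 0.84, and was higher than in Cdelta21 (0.40, adjusted p = 0.0231) but not called against the other two. Of 13 tested targets of the oxidative stress factor Pap1, 6 were higher and 1 lower than the reference, or 53.8% called against 28.3% of all features. Against the mean of the other strains 1 was higher and none lower, or 7.69% called against 17.5%. The glutathione transferase gene gst2, at 1.56, was lower than in Cdelta94, at 2.98, and higher than in Cdelta21, at 0.90, and obr1, at 1.09, lay among 0.99, 1.44 and 1.34. Where all strains share a value, it cannot be told apart from a shift of the reference or the dyes. The cation pump gene cta3 was the 1 lower member of the core stress list, at −0.58, beside 0.98 in Cdelta94.

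The 10 highest ratios of named genes in Cdelta53 were those of hsp104, hsp16, slt1, SPOM_SPAC977.14C, tps3, sti1, SPOM_SPBC30D10.14, fes1, psi1 and wis2. The gene slt1 read 2.33 on both arrays, 5.02-fold higher (adjusted p = 1.06e-09), and was particular to Cdelta53, with 0.14, 1.08 and −0.12 in the other strains. The subtelomeric gene SPOM_SPAC977.14C, at 2.14 and 2.15, had 2.13 in Cdelta94, and SPOM_SPBC30D10.14, at 1.94 and 1.92, had 0.98 to 1.41 in the others. Among the named genes that were called, rep2 had the lowest ratio. The 9 next lowest were those of SPOM_SPAC750.08C, mfs3, mug42, SPOM_SPBP22H7.04, SPOM_SPAC17A2.10C, SPOM_SPAP27G11.16, cbf12, nc-pho1 and mdm12. The subtelomeric gene SPOM_SPAC750.08C read −2.45 and −2.49, 5.54-fold lower (adjusted p = 3.98e-09), beside −0.49, −1.76 and −0.70 elsewhere. The transporter gene mfs3 read −2.26 and −2.29, 4.86-fold lower, beside −1.59, −0.44 and −0.47. The gene cbf12, for a CSL family transcription factor, was low in all 4 strains, at −1.46 in Cdelta53 and −1.12, −0.58 and −0.84 in the others.

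A set of genes was low in Cdelta53 and high in all 3 other strains. The gene mdm12, for a subunit of the complex that tethers mitochondria to the endoplasmic reticulum, read −1.45 and −1.44 in Cdelta53, 2.72-fold lower than the reference (SE 0.17, adjusted p = 1.92e-06). In Cdelta21, Cdelta94 and 2C/S-H/Y it had means of 2.08, 1.84 and 1.71, so that the groups lay far apart on opposite sides of 0, and the difference from their mean was −3.32 (SE 0.19, adjusted p = 1.84e-11). Both mdm12 probes showed it, at −1.26 and −1.63. The gene ted1 read −1.38 and −1.35 beside 2.27, 1.45 and 1.54, a difference of −3.12 (adjusted p = 8.99e-08). SPOM_SPAP27G11.16 read −1.49 and −1.57 beside 1.91, 1.56 and 1.23, a difference of −3.10 (adjusted p = 3.50e-09).

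The same order, with smaller differences, was seen for mug72 (−0.90 beside 1.36, 1.13 and 1.19), for trs31, a subunit of the TRAPP vesicle tethering complex (−0.64 beside 1.11, 0.94 and 0.92), and for nbl1, a subunit of the chromosomal passenger complex (−0.52 beside 1.37, 0.61 and 1.16). It was also seen for rmp1 (−0.98 beside 0.90, 0.37 and 0.38), for msl1, a splicing factor gene (−0.75 beside 0.81, 0.30 and 0.84), for SPOM_SPCC74.04 (−0.77 beside 1.18, 0.27 and 0.69, though its second probe alone was not below every other strain) and for SPOM_SPAPB1A11.02 (−0.74 beside 0.34, 0.47 and 0.31). The adjusted p of trs31 against the reference was 0.0447, and its call was lost on leaving out an array of Cdelta94 or 2C/S-H/Y at 0 min or replicate 2 of Cdelta53. The genes mug42 and SPOM_SPAC17A2.10C were low in Cdelta53, at −2.15 and −2.02 for mug42 and −1.95 and −2.05 for SPOM_SPAC17A2.10C, but their means in 2C/S-H/Y, −0.64 and −0.26, were below 0 as well. For mug42 the probes stood apart, at −3.90 and −0.27, and SPOM_SPAC17A2.10C and SPOM_SPAPB1A11.02 were read by 1 probe each. The labels give no batch, array lot or reference preparation by strain, so strain and batch cannot be told apart.

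The reverse was seen for gut2, which codes for the mitochondrial glycerol-3-phosphate dehydrogenase. It read 0.56 and 0.65 in Cdelta53, 1.52-fold higher than the reference (adjusted p = 0.00132), while its means were −1.82, −1.11 and −1.34 in Cdelta21, Cdelta94 and 2C/S-H/Y. The difference from their mean was 2.03 (SE 0.14, adjusted p = 5.79e-10). The gene str3, for a transporter of iron compounds, read 0.86 and 0.87 beside −0.65, −0.82 and −0.34. The genes mrpl40 and rtc3 met the same criteria, at 0.49 and 0.42, but their probes went opposite ways, at −0.36 and 1.34 for mrpl40 and 1.14 and −0.29 for rtc3, so they carry little weight.

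**Figure D5:**
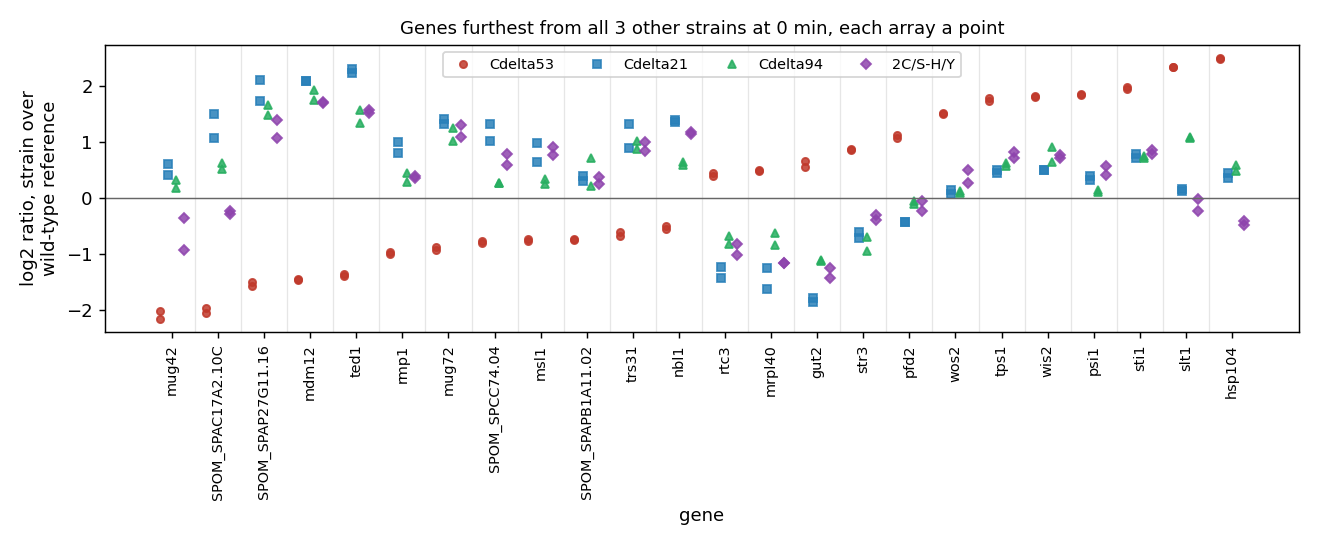
Log2 ratio of strain over reference at 0 min (y axis) for the 12 lower and 12 higher genes furthest from all 3 other strains (x axis, ordered by the mean in Cdelta53). Each point is an array and each strain has its own colour and marker. For mdm12 the Cdelta53 arrays lie at −1.45 and −1.44 and the other strains at means of 1.71 to 2.08, and for gut2 Cdelta53 lies at 0.56 and 0.65 and the others at −1.82 to −1.11.

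Genes of iron, copper and zinc gave calls both against the reference and against the other strains. Of 15 iron genes, 2 were higher and 2 lower than the reference, or 26.7% called against 28.3% of all features. Against the mean of the other strains 4 were higher and 3 lower, or 46.7% against 17.5%. The ferric reductase gene frp1 had a mean of 0.21 in Cdelta53 and −1.10, −1.38 and −1.49 in Cdelta21, Cdelta94 and 2C/S-H/Y, a difference of 1.53 (adjusted p = 1.68e-07). The iron uptake pair fio1 and fip1 lay 1.15 and 1.01 above that mean, and with str3 they make up the 4 higher genes. The 3 lower genes were the transporter gene str2 (difference −0.49), also lower than the reference at −0.80, the iron repressor gene fep1 (−0.44) and the iron-sulfur scaffold gene isu1 (−0.51). Of 11 copper and zinc genes none was higher than the mean of the other strains and 4 were lower, or 36.4% against 9.35% of all features. Among them were the copper transporter genes ctr4, ctr5 and ctr6, with differences of −1.21, −0.95 and −0.83. In Cdelta53 these 3 lay near the reference, at 0.16, −0.15 and −0.36. The metal transporter gene fet4, at −0.84 and −0.93, was particular to Cdelta53.

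Some genes of nitrogen starvation and mating were lower than in the other strains. Against the reference 2 of 30 were lower and none higher, or 6.7% against 14.4% of all features called lower. With the arrays kept separate 12 were lower than the reference, where 1415 of all 5004 features were lower. Against the mean of the other strains 11 were lower and none higher, or 36.7% against 9.35% of all features called lower. The list median was −0.20 in Cdelta53, beside 0.12 in 2C/S-H/Y, 0.21 in Cdelta21 and 0.48 in Cdelta94. The pheromone peptidase gene sxa2 read −0.09 on both Cdelta53 arrays beside 1.90, 2.07 and 1.61, a difference of −1.95 (adjusted p = 0.000161). The meiotic regulator gene mei2 read −0.34 and −0.33 beside 1.21, 0.69 and 0.11, and the M-factor pheromone gene mfm2 −0.35 and −0.19 beside 1.19, 1.02 and 0.20. The 2 genes also lower than the reference were isp7 at −0.88, which was particular to Cdelta53, and mam1, the M-factor transporter gene, at −0.59.

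The defining genes of mating type were near the reference. The h− genes mfm1, mfm2, mfm3 and mam2 had means of −0.25, −0.27, 0.23 and −0.31, and mam1 −0.59. The h+ genes map2 and map3 had −0.37 and −0.24, and ste11 and mei4, regulators of mating and meiosis, −0.12 and −0.40. Of these 9 genes only mam1 was called. Of 19 amino acid permease and glutamate genes 5 were lower than the reference, or 26.3% against 14.4% of all features. Against the mean of the other strains 6 were lower, or 31.6% against 9.35%, and none was higher in either comparison. Against single strains, 8 were lower than Cdelta21 and none higher, 4 lower than Cdelta94 and 3 higher, and 9 lower than 2C/S-H/Y and 1 higher. Of all 5004 features, 611 were lower and 607 higher than in Cdelta21, and 583 and 628 than in Cdelta94. Against 2C/S-H/Y these counts were 876 and 779. The lower genes included the permease gene per1 at −0.77 and −0.87, which was particular to Cdelta53. The glutamate dehydrogenase gene gdh2 read −0.03 and 0.06 beside 1.69, 2.49 and −0.54, so it lay above 2C/S-H/Y.

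Of 9 genes used to build strains, ura4 and his5 were higher than the reference, or 22.2% against 13.8% of all features called higher. The uracil synthesis gene ura4 read 1.01 and 0.98, 1.99-fold higher (adjusted p = 1.30e-05), and was particular to Cdelta53, beside −0.55, 0.53 and 0.50 in Cdelta21, Cdelta94 and 2C/S-H/Y. The leucine gene leu1 read −0.35 on both arrays (no call) but was lower than the mean of the other strains (−0.97), where 2C/S-H/Y had 1.57. The labels name no marker, and whether marker differences bear on other results was not tested.

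Among the phosphate and thiamine genes, 3 of 12 were lower and none higher than the reference, or 25.0% against 14.4% of all features called lower. The transcription factor gene pho7 read −1.10 and −1.12, 2.16-fold lower (adjusted p = 6.92e-07), and was particular to Cdelta53. The polyphosphate synthase gene vtc4 read −0.98 and −0.93 and the acid phosphatase gene pho4 −0.52 and −0.56. The long noncoding RNA nc-pho1, from the region of the phosphatase gene pho1, read −1.52 and −1.38, 2.73-fold lower (adjusted p = 8.41e-08), beside 0.70, 0.80 and −0.67.

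The cell wall and adhesin list had 7 of 25 members lower and 4 higher than the reference, or 44.0% called against 28.3% of all features. Against the mean of the other strains 10 were lower and 1 higher, or 44.0% against 17.5%. The glucan synthase genes bgs1 and bgs3 had means of −0.83 and −0.81, the glucanase gene agn2 −0.83, and agn2 was the 1 member particular to Cdelta53. The glucan remodelling gene gas5 was lower than the mean of the other strains (difference −0.85), as was the flocculin gene pfl4 (−0.99), which lay at −0.18.

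Of 14 hexose transport and glucose-repressed genes, 1 was higher and 2 lower than the reference, and 2 higher and 5 lower than the other strains. The glucose transporter gene ght5 read −1.01 and −1.0, 2.01-fold lower, close to its −0.97 in Cdelta21 and −1.16 in Cdelta94. The gluconeogenic gene fbp1 and the invertase gene inv1 lay near the reference, at −0.04 and 0.01, while Cdelta94 had 1.98 and 1.54. Of 17 glycolysis genes 4 were higher and 1 lower than the reference, or 29.4% called against 28.3% of all features. The higher ones included adh1 (0.59), pgi1 (0.53) and pyk1 (0.50). The lower one was tdh1 (−0.49), with probes at −1.09 and 0.12, and it was not called without replicate 2 of Cdelta53.

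The large housekeeping lists were drawn by gene symbol. Of 123 ribosomal protein genes 24 were higher and 5 lower than the reference, or 23.6% called against 28.3% of all features. Their median was 0.27 beside 0.54, −0.14 and 0.45 in Cdelta21, Cdelta94 and 2C/S-H/Y. This list takes in rpp1, at −0.99 and −1.03, which is a subunit of RNase P and no ribosomal protein. Of 120 ribosome biogenesis genes 17 were higher and 11 lower than the reference, or 23.3% called against 28.3% of all features. Against the mean of the other strains 21 were higher and none lower, with a median difference of 0.18. That is 17.5% against 8.15% of all features called higher. The fibrillarin gene fib1 (0.64), mak16 (0.63) and rrp16 (0.62) were examples, and in Cdelta94 rrp16 had 0.66. The proteasome list had 15 of 33 genes higher and none lower than the reference, 45.5% against 13.8% of all features, with a median of 0.20. The lid subunit gene rpn7 read 0.96 and 0.93, 1.93-fold higher (adjusted p = 2.04e-05), and 3 members, rpn7, rpn3 and pts1, were particular to Cdelta53. Of 66 genes listed for the mitochondrial ribosome 8 were higher and 7 lower, or 22.7% called. But that list takes in pentatricopeptide repeat genes, among them the lower genes ppr5 and ppr7, which are not ribosomal proteins. Of 49 respiratory chain genes 5 were higher and 3 lower, or 16.3% called. The ATP synthase gene atp7 read 0.87 and 0.86 beside −0.50, −0.05 and 0.03, and was particular to Cdelta53.

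Of 119 tested subtelomeric genes, drawn from the 30 outermost at each chromosome end, 23 were higher and 10 lower than the reference, or 27.7% called against 28.3% of all features. Against the mean of the other strains 10 were higher and 14 lower, or 20.2% called against 17.5% of all features. SPOM_SPAC750.01 read 1.74 and 1.70, beside 0.51, 1.56 and 0.59, and gal1 1.23 and 1.26 beside 0.54, 1.15 and 0.76. Genes of these regions can have near-identical copies at other chromosome ends, so their probes may read more than 1 gene and their values are uncertain.

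The later arrays are the time course of the same strain, in hydroxyurea. Strain and batch cannot be told apart there either, so they are no independent test of the values at 0 min. Averaged over 10, 30, 60 and 120 min, 2567 features differed between Cdelta53 and the mean of the other strains, which is 51.3% of those tested, 1371 higher (27.4%) and 1196 lower (23.9%). Of the 148 features particular to Cdelta53 at 0 min, 142 were called in the same direction there, 54 of the 56 higher and 88 of the 92 lower, and 0 in the opposite direction. The mean of mdm12 in Cdelta53 was −1.73, −0.75, −1.44 and −2.95 at the 4 times, while the other strains stayed between 1.30 and 2.36. The mean of hsp104 in Cdelta53 was 2.72, 2.48, 2.85 and 4.21, beside 1.88, 1.11 and 2.79 in Cdelta21, Cdelta94 and 2C/S-H/Y at 120 min. The 6 features not called later were the genes taf8, pts1, SPOM_SPAPB1A11.02, rsv1, spo3 and uro1. Of these, rsv1 had a ratio of −1.33 at 0 min, and its difference from the mean of the other strains went from −1.29 at 0 min to −0.0024 later.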

How the data were processed

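Total RNA was extracted with hot phenol and dyed through aminoallyl cDNA, per the labels' protocols. The authors deposited log2 ratios for every probe on each array. How the arrays were scanned, background-corrected and normalized is not given in the sources used here. The base follows from the values: for 100% of the negative values 2 to that power was a whole multiple of 0.001 (tolerance 0.02 of that unit), against 3.48% with base 10. Array medians ran from −0.12 to 0.06, the lowest correlation between arrays was −0.05, and 1.17% of values were missing.

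The 9858 probes gave 4816 genes with a symbol of their own, of which 99.5% were found in RefSeq (assembly ASM294v3, used for names, lengths and gene order), while 44 probes had several symbols and 182 none, and these were not named. Probes of a gene were averaged, and 5004 of 5042 features with values on at least 80% of the arrays were tested, with limma 3.58.1 (R 4.3.3), on the means of the 20 strain and time groups, with Benjamini-Hochberg adjustment over all 5004. The fit had 20 residual degrees of freedom with the 40 arrays separate and 15 with replicate pairs counted once where the SD of their difference was under 0.102; both had to call a gene at an adjusted p of 0.05. Genes named were rep2, its neighbours, MBF targets and regulators, the 10 highest and 10 lowest ratios, the 12 higher and 12 lower particular genes furthest from every other strain, and up to 4 called members of each list. Other genes were named after their values were seen. Members and lists were chosen with earlier results of these data known.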

Additional observations from a re-analysis of the deposited data

Results flagged for a closer look

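Of the genes chosen for naming, the following differed in Cdelta53 at 0 min from each of the other 3 rep2 mutants by limma's test of the difference itself. The value beside each is the difference in log2 ratio between Cdelta53 and the mean of the other 3 strains. The higher genes with the largest differences were hsp104 (2.33), gut2 (2.03), slt1 (1.96), mrpl40 (1.59), psi1 (1.52), str3 (1.47), rtc3 (1.42), pfd2 (1.31) and wos2 (1.31). Smaller differences were found for sti1 (1.19), tps1 (1.15), wis2 (1.14), atp7 (1.04), fes1 (1.02), tps3 (0.98), rad2 (0.90), ura4 (0.83) and rpn7 (0.80). The lower genes with the largest differences were mdm12 (−3.32), ted1 (−3.12), SPOM_SPAP27G11.16 (−3.10), SPOM_SPAC17A2.10C (−2.54), mug72 (−2.13), mug42 (−2.13), nc-pho1 (−1.73), trs31 (−1.64) and nbl1 (−1.57). Further lower genes were rmp1 (−1.53), SPOM_SPCC74.04 (−1.49), SPOM_SPAC750.08C (−1.48), mfs3 (−1.45), msl1 (−1.40), SPOM_SPAPB1A11.02 (−1.12) and isp7 (−1.09). Smaller differences were found for rpl702 (−1.02), fet4 (−0.96), chs2 (−0.93), per1 (−0.92), pho7 (−0.92), rpp1 (−0.78) and agn2 (−0.59). The probes of mrpl40 and rtc3 went opposite ways, those of mug42 were far apart in size, and the second probe alone of SPOM_SPCC74.04 and rpp1 was not below every other strain. With 2 arrays in each group, no group is large enough to test for a single array that stands apart from its group.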

How the results depend on the processing

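The 9 counts the text leads with were computed under other settings. With the arrays kept separate, features called against the reference rose to 2864, against the other strains (their mean, here and below) to 2113 and particular to 398. MBF targets lower rose to 8 and higher to 4, and mating genes lower than the other strains to 19. With the 4 groups at 0 min fitted alone these were 2397, 1741 and 360, with 7 MBF targets lower and 3 higher. Quantile normalization gave 1414 against the other strains, 276 particular and 2 MBF targets higher. The first probe alone gave 941, 527 and 77. The second gave 501 against the other strains and 77 particular, with 2 MBF targets lower, 3 higher and 7 mating genes lower. Leaving out 1 array at 0 min gave 1318 to 1454 features against the reference, 773 to 899 against the other strains, 89 to 151 particular (89 and 97 without Cdelta94 replicate 1 or 2), 3 or 4 MBF targets lower and 1 higher, 10 or 11 mating genes, 17 or 18 chaperone and stress genes, and 12 chaperone genes against the other strains. Particular features came to 180 against Cdelta21 and Cdelta94 only, 119 with a difference of at least 0.5, and 142 when also called in hydroxyurea, a setting chosen after seeing the data. Without 2 further sets of arrays, also chosen so, they came to 153 (2C/S-H/Y 60 min replicate 1) and 184 (Cdelta94 at 30 and 120 min). With the replicate block the counts were 1512, 967 and 164; same-numbered arrays did not deviate together (correlations −0.115 to 0.131), so the numbers pair nothing. The causes were not tested. Of 2509 pairs of a named gene and a setting, 2426 kept direction and side of the threshold, 53 lost the call, 27 gained one and 3 reversed: mrpl40 with its first probe alone (−0.36), and rtc3 (−0.29) and tdh1 (0.12) with their second. Signal over background was not used, so dim probes could not be set apart, and precision rests on the other strains' spread.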
